A study of Mus musculus with 6 samples.

Results

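Genes used as marks of intestinal epithelium, 10 in all, were followed in the gastric corpus of Cldn18 knockout and wild-type mice. They were taken by symbol, and all of them were found among 38720 rows of the gene table. They comprise the homeobox genes Cdx1 and Cdx2, the nuclear receptor genes Hnf4a and Hnf4g, the structural and surface genes Vil1, Cdh17 and Lgals4, and the metabolic genes Fabp1, Fabp2 and Cps1. The study compared 3 Cldn18 knockout libraries (CLDN18-/-) with 3 wild-type libraries (CLDN18+/+), all of strain B6:129S5. Cldn18 encodes claudin 18, which seals the junctions between cells of the gastric lining. Pieces of the gland neck were cut from frozen sections by laser capture, and their total RNA was sequenced. The sample labels give an age of 7 weeks, whereas the design text gives 7 days, so the age is uncertain. Nothing in the labels says whether the libraries of a group are from different mice. The p-values below therefore reflect the spread among libraries, which may be technical.

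In the gut, CDX2 and its relative CDX1 are the homeobox factors that set intestinal rather than gastric fate, and their appearance in the stomach is a classic sign of intestinal metaplasia. HNF4A and HNF4G, acting with them, switch on genes of the absorptive cell, among them those for the microvilli, fatty acid uptake and digestion. Several of these genes are not restricted to the gut: Hnf4a is also used in liver and in gastric epithelium, Vil1 in tuft cells, and Fabp1 and Cps1 in liver.

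The libraries held 37673283 to 52842813 reads on genes. Cldn18 itself had 13035, 16798 and 15818 normalized counts in knockout replicates 1, 2 and 3, against 30498, 21210 and 23241 in wild-type replicates 1, 2 and 3. The gene was lower in the knockout (log2 difference -0.71 ± 0.20, SE; limma adjusted p = 0.0134) and the groups did not overlap, but many reads remained. The labels do not say which part of the gene was deleted, so this is a weak check of the labels. The labelled neck tissue carried its mucous neck markers in all 6 libraries, with summed Muc6, Tff2 and Gkn3 values of 63912 to 152258 in the knockout and 74440 to 96360 in wild-type. Most of that sum was Tff2, and its members differed: Gkn3 rose by 2.69 and Muc6 fell by 1.71 on the log2 scale (limma adjusted p = 1.90e-05 and 0.000207), and Tff2 was not called. Wild-type replicates 2 and 3 stood apart from replicate 1: processed pseudogenes took 1.07% and 0.530% of their reads, against 0.144% in replicate 1 and 0.104% to 0.118% in the knockout libraries. Mitochondrial genes took 1.25% to 1.56% of reads in the knockout and 3.28% to 4.28% in wild-type. Much of the depth went to Gm26924, which left fewer reads for all other genes. Its share was 40.8%, 40.7% and 41.1% in knockout replicates 1 to 3, against 45.4%, 38.6% and 38.6% in wild-type replicates 1 to 3. By this measure wild-type replicate 1 was the highest of the 6 libraries, and wild-type replicates 2 and 3 were the lowest. A value in wild-type replicate 2 at least 3 times, and in replicate 3 at least 1.5 times, that of replicate 1 was found for 8.13% of tested genes, and for Cps1 and no other tested member. Results are therefore also given without wild-type replicates 2 and 3, which leaves a single wild-type library whose variance is taken from the knockout group. That library, replicate 1, itself stood apart in its Gm26924 share.

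In the Cldn18 knockout Vil1, Lgals4 and Hnf4a rose and Fabp1 fell. Hnf4g, Fabp2 and Cps1 were not called different, and Cdx1, Cdx2 and Cdh17 were too low to judge. A gene was tested only if it reached 10 normalized counts in at least 3 of the 6 libraries, and it was called at a Benjamini-Hochberg adjusted p under 0.05 in a limma fit over all 17432 genes that did so. Of the 7 members tested, 3 were called higher and 1 lower, while 23.3% of all tested genes were called higher, 21.5% lower and 44.7% in either direction. At 57.1% of those tested, the called members are not far above the share of all genes, and the list as a whole is not set apart by that count. The values of both groups were apart for 4 of the 7, against 55.2% of all tested genes. Fabp1 passed the filter only through its wild-type libraries, so it had to differ in order to be tested.

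**Figure D1:**
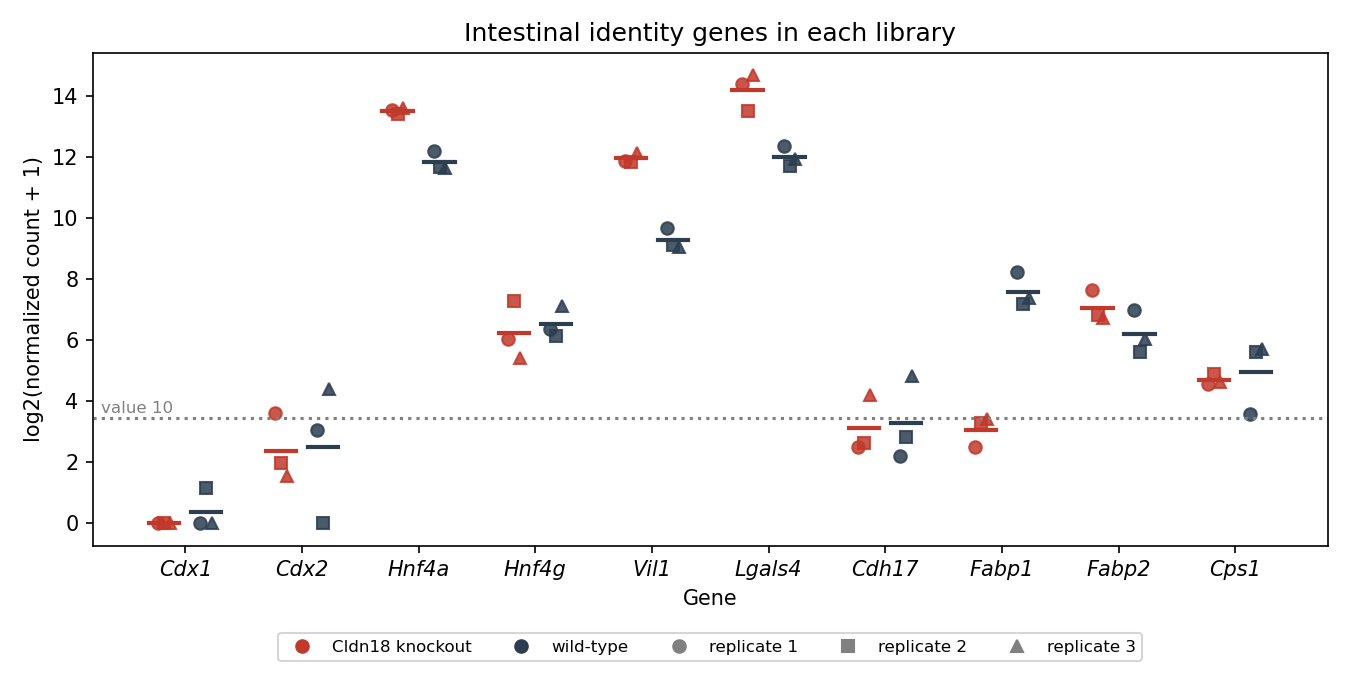
Normalized counts of the 10 genes in each library, as log2(normalized count + 1) on the y axis, with Cldn18 knockout to the left of wild-type for each gene on the x axis. Points are libraries, short lines are means over 3 libraries, and the dotted line marks a value of 10; Cdx1, Cdx2 and Cdh17 lie mostly at or below it in both groups, and Fabp1 only in the knockout.

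The CDX genes were at the edge of detection in both genotypes. Cdx1 had 0 reads in all 3 knockout libraries and a single read, in replicate 2, among the wild-type libraries. The limit that 0 reads allows, 3 reads, corresponds to 2.22 to 2.88 normalized counts per knockout library. Cdx2 had 11.3, 2.96 and 1.92 normalized counts in knockout replicates 1 to 3, against 7.34, 0 and 20.4 in wild-type replicates 1 to 3, which comes from 18 and 27 reads in all. The groups overlapped, and the wild-type libraries alone spanned the whole range. Pooled over libraries, Cdx2 stood at 5.21 (95% Poisson interval 3.09 to 8.24) in the knockout and 10.2 (6.70 to 14.8) in wild-type, intervals that cover counting error only. Fitted with no filter on values, the gene had a log2 difference of -0.11 ± 1.13 (SE), with a limma adjusted p = 0.962. Neither CDX gene was therefore judged higher or lower. Cdx4, the remaining member of the family, also lay below the filter, with 0 to 6.65 normalized counts in the knockout and 0.971 to 7.41 in wild-type.

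Hnf4a, in contrast, was among the abundant transcripts and rose. It had 11797, 10791 and 12574 normalized counts in knockout replicates 1 to 3, against 4711, 3255 and 3223 in wild-type replicates 1 to 3. Every knockout library exceeded every wild-type library, and the spread within each group was small beside the gap. The means were 11720 ± 894 in the knockout and 3730 ± 850 in wild-type (SD, n = 3 each). The log2 difference was 1.67 ± 0.17 (SE; limma adjusted p = 3.70e-05), and its 95% interval, as a fold change, ran from 2.44 to 4.16. It was 1.31 without wild-type replicates 2 and 3 (limma adjusted p = 0.00103). RefSeq places 2 start windows of Hnf4a in GRCm38.p6, at chr2:163506607-163506906 and chr2:163546905-163547204, and counts per gene do not separate transcripts from these starts.

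Hnf4g, the close relative of Hnf4a, was far less abundant and was not called. Its values were 64.2, 157 and 41.3 normalized counts in knockout replicates 1 to 3 and 82.0, 69.2 and 137 in wild-type replicates 1 to 3. Knockout replicates held both the highest and the lowest value, so the groups overlapped fully. The log2 difference was -0.29 ± 0.48 (SE; limma adjusted p = 0.648), with a 95% interval from 0.392-fold to 1.70-fold, which does not show that the levels were alike. The sign was the reverse without knockout replicate 3, at 0.13. Per kilobase of exon, the ratio of Hnf4a to Hnf4g was 100.1, 37.5 and 166 in knockout replicates 1 to 3, against 31.3, 25.6 and 12.8 in wild-type replicates 1 to 3. The ratio was thus higher in each knockout library, with knockout replicate 2 nearest to wild-type.

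The structural gene Vil1 had the largest increase of the members. Villin bundles actin in the microvilli of the intestinal brush border. Vil1 had 3784, 3644 and 4534 normalized counts in knockout replicates 1 to 3, against 813, 556 and 536 in wild-type replicates 1 to 3. The groups were far apart and the knockout libraries lay close together. The log2 difference was 2.67 ± 0.18 (SE; limma adjusted p = 2.26e-06), a fold change with a 95% interval from 4.82 to 8.39. Without wild-type replicates 2 and 3 it was 2.29 (limma adjusted p = 0.000150). Ordered by log2 difference, Vil1 stood 209 from the top of all tested genes. The gene lies on chromosome 1 at 74409376 to 74435559, plus strand, in mm10, and shares 49 exon bases with Usp37 on the other strand. How strand was treated in counting was not given, so reads in those bases could belong to either gene.

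Lgals4, which encodes a galectin of the digestive epithelium that binds glycans, was the most abundant member in both groups and also rose. It had 21321, 11598 and 26131 normalized counts in knockout replicates 1 to 3, against 5277, 3312 and 3877 in wild-type replicates 1 to 3. Knockout replicate 2 was the lowest of its group, and still above each wild-type library. The log2 difference was 2.19 ± 0.28 (SE; limma adjusted p = 0.000155), with a 95% interval from 2.96-fold to 7.04-fold. It was 1.82 without wild-type replicates 2 and 3 (limma adjusted p = 0.0106).

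Cdh17, the gene of liver-intestine cadherin and a common marker of intestinal metaplasia, was too low to judge. It had 4.72, 5.17 and 17.3 normalized counts in knockout replicates 1 to 3, against 3.67, 6.17 and 27.2 in wild-type replicates 1 to 3. In both groups replicate 3 was the highest. These values come from 30 reads in the knockout and 36 in wild-type, and the groups overlapped.

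The windows around the annotated start sites of the genes that rose and of Fabp1, the gene that fell, are shown here so that their letters can be compared. For Hnf4a only the upstream start is shown. They are from RefSeq (GRCm38.p6), run from 250 bases before to 50 bases after the start, and are read 5′ to 3′ on the gene's strand. RefSeq windows were matched for 6 of the 9 members looked up, and Cdx1 was not looked up. Capitals mark matches on either strand to the core of the CDX motif, written CNATAAA. They also mark matches to the GATA motif, written AGATAA. The windows shown held no match to CAAAGTCCA or its looser form CAAAGNNCA, both HNF4 motifs. The looser HNF4 pattern takes in the stricter one.
Vil1 (chr1:74409134-74409433, plus strand): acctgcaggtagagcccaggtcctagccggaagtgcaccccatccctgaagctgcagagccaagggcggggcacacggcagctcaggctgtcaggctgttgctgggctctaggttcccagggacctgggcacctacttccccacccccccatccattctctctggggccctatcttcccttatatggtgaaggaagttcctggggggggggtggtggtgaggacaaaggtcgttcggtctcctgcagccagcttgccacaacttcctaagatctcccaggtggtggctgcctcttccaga
Lgals4 (chr7:28833544-28833843, plus strand): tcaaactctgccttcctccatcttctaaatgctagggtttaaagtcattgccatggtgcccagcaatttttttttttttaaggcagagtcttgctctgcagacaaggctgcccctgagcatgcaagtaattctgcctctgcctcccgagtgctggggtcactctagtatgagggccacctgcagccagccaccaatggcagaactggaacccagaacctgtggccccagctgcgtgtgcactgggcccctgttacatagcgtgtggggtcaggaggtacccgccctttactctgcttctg
Hnf4a, upstream start (chr2:163506607-163506906, plus strand): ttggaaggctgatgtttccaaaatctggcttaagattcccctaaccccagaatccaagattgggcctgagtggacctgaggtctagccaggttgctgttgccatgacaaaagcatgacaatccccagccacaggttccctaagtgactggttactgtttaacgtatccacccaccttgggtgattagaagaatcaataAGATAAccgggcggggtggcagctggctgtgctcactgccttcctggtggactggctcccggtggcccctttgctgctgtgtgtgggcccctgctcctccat
Fabp1 (chr6:71199629-71199928, plus strand): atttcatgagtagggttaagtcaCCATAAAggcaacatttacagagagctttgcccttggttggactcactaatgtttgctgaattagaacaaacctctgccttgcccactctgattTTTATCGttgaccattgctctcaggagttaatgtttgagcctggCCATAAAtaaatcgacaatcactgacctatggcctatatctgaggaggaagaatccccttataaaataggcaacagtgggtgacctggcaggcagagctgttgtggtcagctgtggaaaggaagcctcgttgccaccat
The Fabp1 window held 3 CDX matches, at positions -227, -133 and -89 from the start site, the middle one on the opposite strand. The upstream Hnf4a window held a single GATA match, and those of Vil1 and Lgals4 held no match to any of these patterns. The window of Fabp2, which is not shown, held a CDX match at -65 and a looser HNF4 match at -137. Both were on the opposite strand. The downstream Hnf4a window and that of Cdx2, also not shown, held no match. Among 32851 windows of the same length, 10.9% held the CDX pattern, 11.2% the GATA pattern, 6.36% the looser HNF4 pattern and 0.475% the stricter one. A match of letters is a description of the sequence and does not show binding.

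Fabp1 was the member that fell. It encodes the liver-type fatty acid binding protein, which the proximal intestine also makes in large amounts. Fabp1 had 4.72, 8.87 and 9.61 normalized counts in knockout replicates 1 to 3, against 301, 143 and 165 in wild-type replicates 1 to 3. The knockout values rest on 5, 12 and 10 reads, and all were far below the lowest wild-type value. The log2 difference on the log2(normalized count + 1) scale was -4.52 ± 0.45 (SE; limma adjusted p = 3.03e-05), and that scale understates the change of a gene this low. The ratio of the group means was 0.0381. Without wild-type replicates 2 and 3 the log2 difference was -5.16 (limma adjusted p = 0.00127).

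Fabp2, the intestinal-type fatty acid binding protein gene, was not called. Its values were 197, 112 and 106 normalized counts in knockout replicates 1 to 3 and 127, 48.2 and 64.1 in wild-type replicates 1 to 3. Wild-type replicate 1 lay inside the knockout range, and the remaining wild-type libraries lay below it. The log2 difference was 0.85 ± 0.40 (SE; limma adjusted p = 0.115), with a 95% interval from 0.967-fold to 3.34-fold. This result turned on wild-type replicate 1: without it the log2 difference was 1.24 and was called (limma adjusted p = 0.0167), and with it as the only wild-type library the log2 difference was 0.06 (limma adjusted p = 0.931). The ratio of Fabp1 to Fabp2, per kilobase of exon, was 0.0417, 0.139 and 0.159 in knockout replicates 1 to 3, against 4.13, 5.19 and 4.49 in wild-type replicates 1 to 3. Fabp1 was thus above Fabp2 in each wild-type library and below it in each knockout library.

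Cps1 encodes the mitochondrial enzyme of the first step of the urea cycle, active in liver and small intestine. It had 22.7, 28.8 and 24.0 normalized counts in knockout replicates 1 to 3, against 11.02, 48.2 and 51.5 in wild-type replicates 1 to 3. The knockout libraries agreed closely and fell inside the wild-type range, whose upper values came from the libraries that stood apart in pseudogene reads. The log2 difference was -0.27 ± 0.60 (SE; limma adjusted p = 0.745), with a 95% interval from 0.329-fold to 2.09-fold. Without wild-type replicates 2 and 3 it was 1.12 and likewise not called (limma adjusted p = 0.199). The part of the pseudogene reads in this gene's values was not tested.

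**Figure D2:**
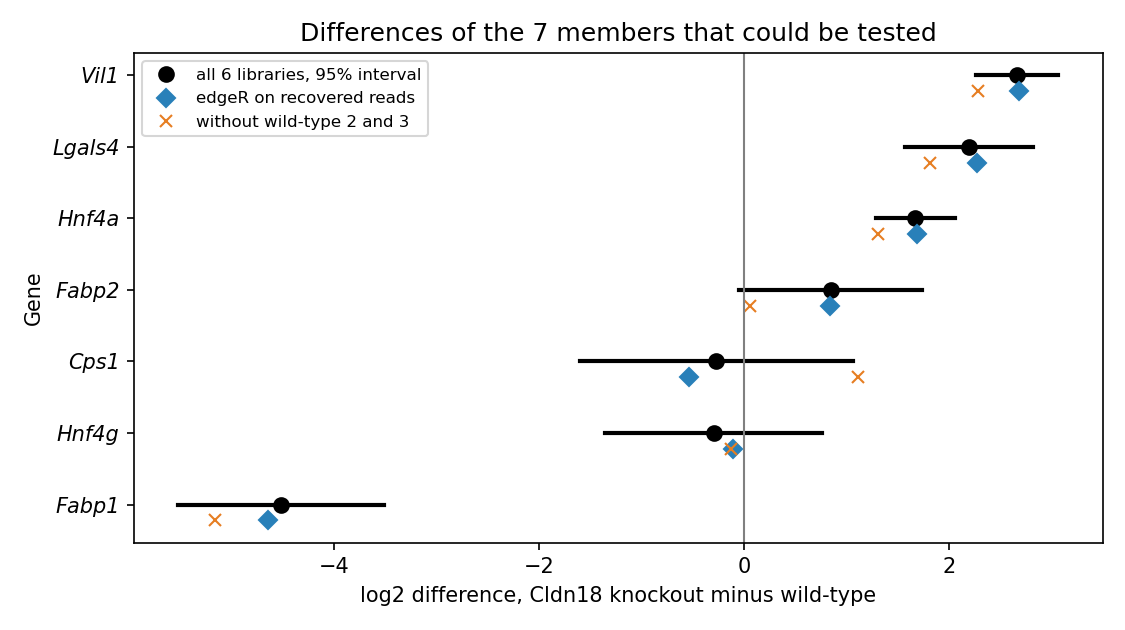
Log2 differences (x axis, Cldn18 knockout minus wild-type) of the 7 members tested (y axis), with limma estimates as black circles and their 95% intervals as lines, edgeR estimates as diamonds, and limma estimates without wild-type replicates 2 and 3 as crosses. Vil1, Lgals4 and Hnf4a lie at 2.67, 2.19 and 1.67, Fabp1 at -4.52, and the intervals of Fabp2, Cps1 and Hnf4g include 0.

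Set in order per kilobase of exon, the members changed places. In the knockout Lgals4 stood highest with 8502 ± 3198 normalized counts per kilobase (SD, n = 3), followed by Hnf4a with 2428 ± 185 and Vil1 with 1123 ± 135. Fabp2 (143 ± 53), Hnf4g (33.2 ± 23.2), Fabp1 (13.98 ± 4.76) and Cps1 (4.53 ± 0.58) came next on the same scale, with Cdx2 and Cdh17 at no more than 5.01 in any knockout library. In wild-type Lgals4 (1795 ± 437) and Hnf4a (773 ± 176) again led, but Fabp1 followed them with 367 ± 155, ahead of Vil1 with 179 ± 43. Fabp2 (82.7 ± 43.4), Hnf4g (36.5 ± 13.7) and Cps1 (6.64 ± 4.04) followed per kilobase. Neighbours whose libraries overlapped were Hnf4g with Fabp1, Cps1 with Cdx2 and Cdx2 with Cdh17 in the knockout, and Fabp2 with Hnf4g, Cps1 with Cdx2 and Cdx2 with Cdh17 in wild-type.

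The captured tissue differed between genotypes in other cell markers as well. In bulk samples, fewer cells of a type and less RNA per cell cannot be told apart. Of 6 general epithelial genes 5 (Epcam, Cdh1, Krt8, Krt18 and Krt19) rose (83.3%, against 23.3% of all tested genes) and Cldn7 was not called. Their summed level was 208890 to 322828 in the knockout and 93080 to 131744 in wild-type, with a median log2 difference of 1.30. Without wild-type replicates 2 and 3 the log2 differences of Krt19 and Cdh1 were 0.97 and 0.71, and their calls were lost. That of Cldn7 was 3.70 there, against 1.61 with all libraries. Cldn7 had 2133, 1396 and 2399 normalized counts in knockout replicates 1 to 3, against 147, 2089 and 819 in wild-type replicates 1 to 3. All 6 parietal cell markers fell (100%, against 21.5% of all tested genes), led by Slc26a7 (-6.93), Kcne2 (-6.89), Atp4a (-6.88) and Atp4b (-6.87). Their summed level was 3544 to 10195 in the knockout and 393347 to 510982 in wild-type. Slc26a7 passed the filter only through wild-type, so it had to differ in order to be tested. All 3 chief cell markers found, Pgc (-5.31), Gif (-3.94) and Bhlha15 (-2.04), fell as well (100%). They summed to 33583 to 66573 in the knockout and 1411700 to 2267910 in wild-type. Of 4 surface and pit cell markers, Gkn1 (-1.62) and Gkn2 (-1.25) fell (50%), and Muc5ac and Tff1 were not called. The 4 markers summed to 320085 to 560842 in the knockout and 766468 to 1336360 in wild-type. The call of Gkn1 was lost without knockout replicate 1 or 2 (limma adjusted p = 0.0588 and 0.0949), and that of Gkn2 without any of the 3 knockout replicates, wild-type replicate 1 or wild-type replicate 3 (limma adjusted p = 0.0553 to 0.227). Hnf4a, Vil1 and Lgals4 rose, as did 5 of the 6 general epithelial genes. Fabp1 fell, as did the parietal and chief cell genes, but so did Gkn1, Gkn2 and the mucous neck gene Muc6. With only knockout and wild-type to compare, a shared direction does not tie a member to a cell type. The part of any cell type in the members' values was not tested.

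Relative to the epithelial genes of the same library, the 3 raised members differed among themselves. This ratio was chosen after the values were seen. Vil1 had 14.4, 17.4 and 14.04 normalized counts per 1000 counts of the 6 epithelial genes in knockout replicates 1 to 3, against 6.17, 5.97 and 5.59 in wild-type replicates 1 to 3. Lgals4 had 81.2, 55.5 and 80.9 on this scale in knockout replicates 1 to 3, against 40.1, 35.6 and 40.5 in wild-type replicates 1 to 3. Hnf4a had 44.9, 51.7 and 38.9 in knockout replicates 1 to 3, against 35.8, 35.0 and 33.6 in wild-type replicates 1 to 3. The knockout remained above wild-type for all 3 genes (two-sided exact permutation p = 0.1 each, the smallest that 3 against 3 allows, and 0.125 adjusted over 5 genes compared). The ratio of group means was 2.59 for Vil1, 1.88 for Lgals4 and 1.30 for Hnf4a. Krt8 and Krt19 were the largest of the 6 epithelial genes in each library, so these ratios rest mainly on them. Their group means rose 2.84-fold and 2.48-fold, and the remaining epithelial genes ran from 1.94-fold (Cldn7) to 2.46-fold (Krt18). Fabp1 was below wild-type on this scale too, with a ratio of means of 0.0163, and Fabp2 overlapped between the groups.

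**Figure D3:**
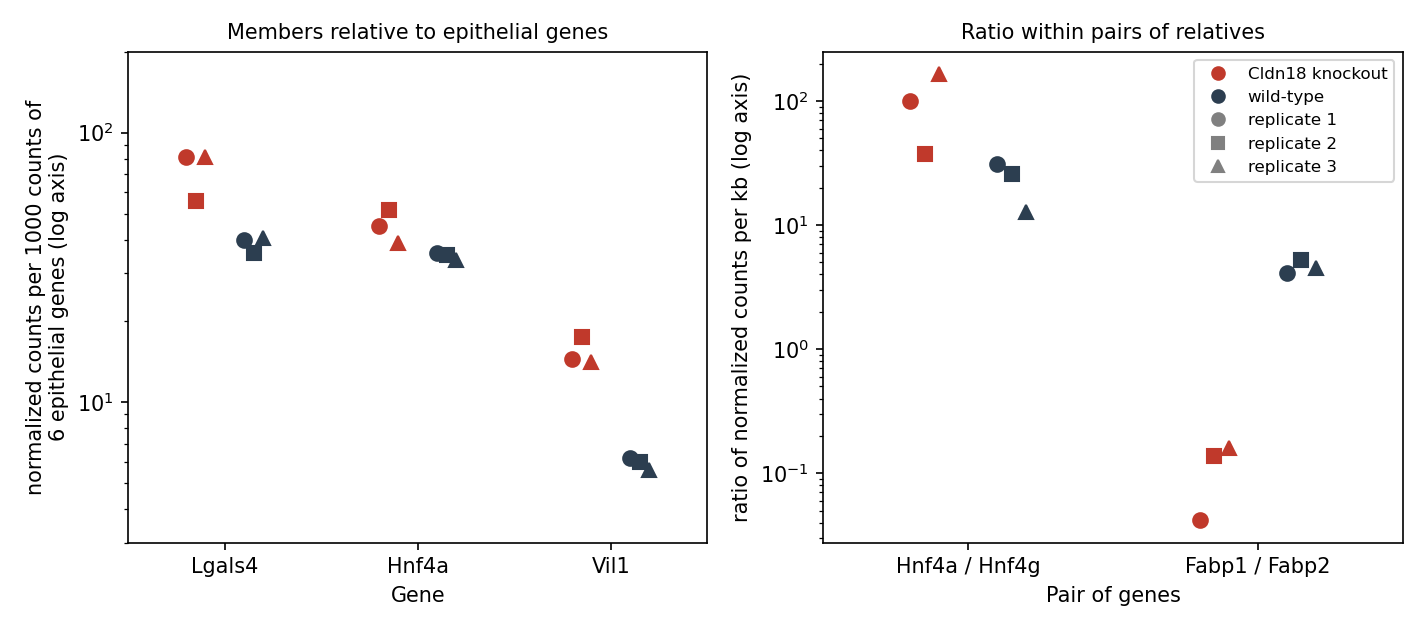
Left, normalized counts of Lgals4, Hnf4a and Vil1 per 1000 counts of 6 epithelial genes of the same library; right, the ratio of Hnf4a to Hnf4g and of Fabp1 to Fabp2 per kilobase of exon. Points are libraries, y axes are logarithmic, and Cldn18 knockout stands left of wild-type; on the left the groups are closest for Hnf4a (38.9 to 51.7 against 33.6 to 35.8), and on the right the groups do not overlap for either pair.

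Other intestinal genes moved in both directions. Over 5 lists, 25% of the 72 genes tested were called higher and 26.4% lower, against 23.3% and 21.5% of all tested genes, so the lists together lay near the background. Of 37 enterocyte genes, all in the table, 28 were tested. Of these, 5 were higher (17.9%), 8 lower (28.6%) and 15 not called. Their median log2 difference was -0.31 against -0.02 for all tested genes. The counts were 4 higher and 4 lower without wild-type replicates 2 and 3. Those that rose included the chloride channel gene Cftr (log2 difference 4.88, with means of 1547 ± 550 in the knockout and 52.2 ± 21.1 in wild-type, SD, n = 3 each), Gpa33, a surface antigen of intestinal epithelium (4.75), and the peptidase genes Dpp4 (2.74) and Mep1b (2.18). The call of Mep1b was lost without knockout replicate 3 (limma adjusted p = 0.0960) and without wild-type replicates 2 and 3 (limma adjusted p = 0.161). Those that fell included the apolipoprotein genes Apoa4 (-7.01) and Apoa1 (-6.07), the peptide transporter gene Slc15a1 (-3.19) and the fructose transporter gene Slc2a5 (-2.29). Apoa1 had 496, 916 and 727 normalized counts in knockout replicates 1 to 3, against 57031, 45021 and 38824 in wild-type replicates 1 to 3, so it was still well detected in the knockout. Slc15a1, like Lct among the 8, passed the filter only through wild-type, so it had to differ in order to be tested, and it lost its call without wild-type replicates 2 and 3 (limma adjusted p = 0.112). Sis, the sucrase-isomaltase gene, was low in both groups, with a log2 difference of -1.07 that was not called (limma adjusted p = 0.217). Alpi, the intestinal alkaline phosphatase gene, was likewise not called at 0.81 (limma adjusted p = 0.464).

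Of 16 genes that build the brush border beside Vil1, 14 were tested, with 5 higher (35.7%, against 23.3% of all tested genes), 4 lower (28.6%, against 21.5%) and 5 not called, and a median log2 difference of 0.11. The microvillus genes Anks4b (log2 difference 2.06), Eps8 (1.75), Pls1 (1.48), which encodes an actin-bundling plastin, and Myo1a (1.16), a brush border myosin gene, rose. The actin regulator gene Cobl (-4.51), the protocadherin genes Cdhr5 (-2.93) and Cdhr2 (-0.95), whose products link neighbouring microvilli, and Baiap2l1 (-0.61) fell. The call of Cdhr2 was lost without wild-type replicate 3 (limma adjusted p = 0.0541), and that of Baiap2l1 without any of knockout replicate 1, knockout replicate 2 and wild-type replicate 3 (limma adjusted p = 0.0526 to 0.0915).

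Goblet and Paneth cell genes were mostly too low to judge: 11 of 18 lay below the filter, and the Paneth cell defensin genes Defa17 and Defa21 were at 0 in all 6 libraries. Of the 7 tested, Fcgbp rose (1.73), Spink4 (-2.04) and Spdef (-0.50) fell, and 4 were not called. The shares were 14.3% higher and 28.6% lower, against 23.3% and 21.5% of all tested genes. Muc2, the goblet cell mucin gene, had 9.44, 13.3 and 22.1 normalized counts in knockout replicates 1 to 3, against 18.4, 9.88 and 23.3 in wild-type replicates 1 to 3. Tff3 had 24.6, 18.5 and 9.61 in knockout replicates 1 to 3, against 17.1, 9.88 and 15.5 in wild-type replicates 1 to 3. Both genes overlapped between the groups and were not called (limma adjusted p = 0.822 and 0.778). The call of Fcgbp was lost without wild-type replicate 3 (limma adjusted p = 0.0510) and without wild-type replicates 2 and 3 (0.190), and that of Spdef without knockout replicate 1 (0.0683) or 3 (0.0837).

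Of 18 transcription factor genes used in intestinal epithelium, 17 were tested, with a median log2 difference of 0.20. Of these, 6 were higher (35.3%, against 23.3% of all tested genes), 3 lower (17.6%, against 21.5%) and 8 not called. Without wild-type replicates 2 and 3, 3 were higher and 3 lower: Elf3 and Foxa3, whose groups overlapped, lost their calls (limma adjusted p = 0.462 and 0.488). Klf5 (1.07), Klf4 (1.05) and the bile acid receptor gene Nr1h4 (1.04) were among those that rose, and the lipid-sensing receptor gene Ppara (-3.18), Foxa2 (-0.90) and Gata6 (-0.57) fell. The call of Gata6 was lost without knockout replicate 1 (limma adjusted p = 0.0502), and that of Nr1h4 was also lost without wild-type replicates 2 and 3 (limma adjusted p = 0.0538). Of 8 genes of the urea cycle and of citrulline synthesis, in which Cps1 acts, 6 were tested. Aldh18a1 rose (0.88; 16.7%), Arg2 (-2.76) and Oat (-0.55) fell (33.3%), and 3 were not called. Otc, which makes citrulline in gut and liver, lay below the filter, with 2.88 to 14.04 normalized counts in the knockout and 1.23 to 2.45 in wild-type. Arg2 lost its call without wild-type replicates 2 and 3 (limma adjusted p = 0.0603) and Oat without knockout replicate 1 (limma adjusted p = 0.0600).

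**Figure D4:**
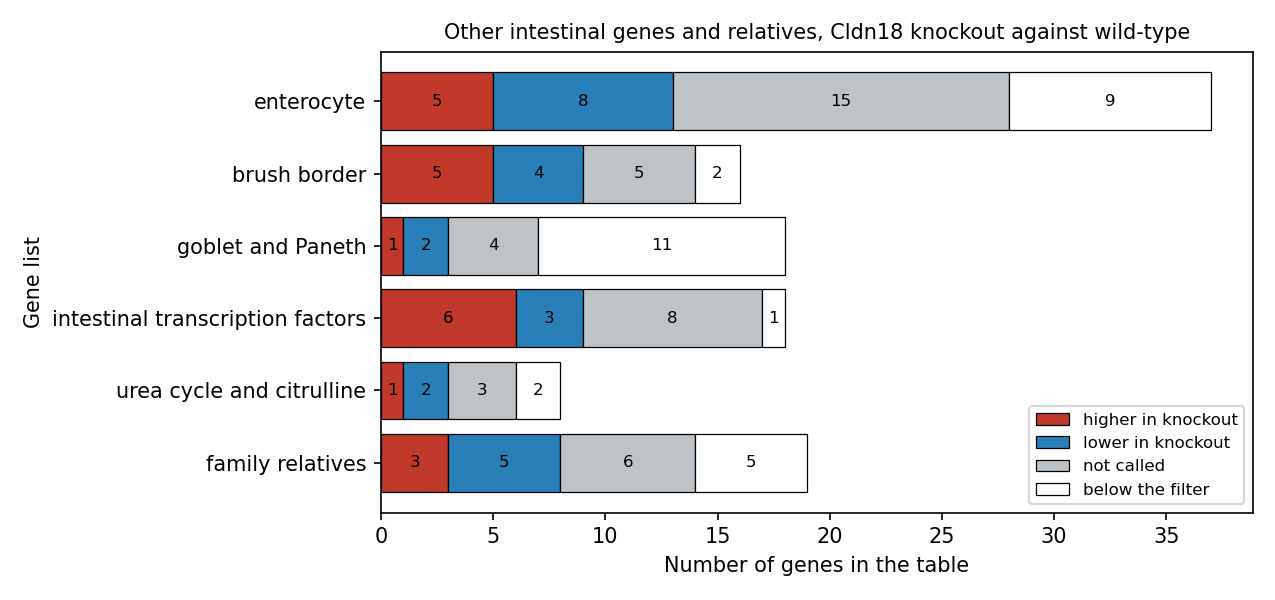
Number of genes (x axis) of 5 lists of intestinal genes and of the relatives of the members (y axis) that were called higher or lower in the Cldn18 knockout, were not called, or lay below the filter on values. Each list holds genes of both directions, and most goblet and Paneth genes (11 of 18) lie below the filter.

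The nearest relatives of the members did not move as one. Among fatty acid binding protein genes, Fabp3 fell by 7.22 and Fabp4 fell by 2.32 on the log2 scale, as Fabp1 did, whereas Fabp5 rose by 1.90. Among galectin genes, Lgals3 rose by 2.80, as Lgals4 did, and Lgals2 fell by 2.84 and Lgals1 fell by 0.80. The call of Lgals1 was lost without knockout replicate 1, knockout replicate 2, wild-type replicate 2, or wild-type replicates 2 and 3 together (limma adjusted p = 0.0532 to 0.143). Of the relatives of villin, Avil rose by 1.73, and Vill, Gsn and Scin were not called. In all, 14 of 19 relatives were tested, with a median log2 difference of 0.09. There were 3 higher (21.4%, against 23.3% of all tested genes), 5 lower (35.7%, against 21.5%) and 6 not called among these 14. Of these, 4 were higher and 3 lower without wild-type replicates 2 and 3.

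Markers of other cells that use these genes were read in the same libraries. Of 14 tuft cell genes 13 were tested and 3, among them Avil and Pou2f3, rose (23.1%, against 23.3% of all tested genes). The summed level of the tuft cell genes was 6495 to 8697 in the knockout and 3679 to 4703 in wild-type. The call of Pou2f3 was lost without knockout replicate 1 or 2 or wild-type replicate 1 (limma adjusted p = 0.0586 to 0.124). Avil was the largest part of that sum in each library. Dclk1 (log2 difference 0.02) and Trpm5 (-0.36) were among the 10 tuft cell genes not called. The median log2 difference of the 13 tested was 0.18, against -0.02 for all tested genes. Of 11 hepatocyte genes 7 were tested, of which Ahsg rose (14.3%), Ttr fell (14.3%, against 21.5% of all tested genes) and 5 were not called. Their summed level was 610 to 844 in the knockout and 1847 to 2649 in wild-type, with Ttr its largest part in each library. Alb stood at 121 to 168 in the knockout and 38.8 to 211 in wild-type and was not called. Of 9 pancreatic acinar genes 3 were tested and 1, Cela1, was called, as higher (33.3%, against 23.3% of all tested genes). That call was lost without knockout replicate 1 or 2, wild-type replicate 2 or 3, or both of these wild-type libraries (limma adjusted p = 0.0606 to 0.325), and Amy2a5 was at 0 in all 6 libraries. The part of these cells in the values of Vil1, Fabp1 and Cps1 was not tested.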

How the data were processed

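Both deposited tables were used. The first holds the normalized count of each gene in each library, a signal scaled by the authors. The second, also deposited, is the authors' own comparison, giving mean signal per group, the ratio of the means and p-values. Per the submitters' processing notes STAR, featureCounts and DESeq were used with mm10; their roles and versions, the annotation and the treatment of strand were not given. Within each library 100% of the deposited values were whole multiples of the smallest value above 0, within 0.05 reads, which gave whole reads. Rows with a date for a symbol (27) stayed in the fit. The members and gene lists were chosen with earlier results of these data known.

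The main test was limma 3.58.1 (R 4.3.3; lmFit, eBayes with a mean trend) on log2(normalized count + 1). Tests were two-sided, and p-values were adjusted by Benjamini-Hochberg over the 17432 genes that reached 10 in at least 3 of 6 libraries. edgeR 4.0.16 (TMM, quasi-likelihood) and DESeq2 1.42.0 were run on the recovered reads as alternatives. edgeR called 4323 genes higher and 3724 lower. Other alternatives changed the pseudocount, filter, scaling and libraries, added the replicate number as a block, or used the authors' table. In each list up to 4 called genes per direction, by size, and a fixed set of further genes whatever their values were named, except a few genes not reported here. Exon lengths and loci are from GENCODE M21. The fit was tested on simulated data. Dclk1, Trpm5, Alb, Amy2a5, Defa17, Defa21, Cdx4, Vill, Gsn, Scin, Lct, Elf3, Foxa3, Tff2, Muc5ac, Tff1, Cldn7 and Gm26924 were named after their values were seen. The exact permutation test was used for ratios.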

Additional observations from a re-analysis of the deposited data

How the results depend on the processing

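Vil1, Lgals4, Hnf4a and Fabp1 kept their direction and their call under all 17 alternatives, with log2 differences of 2.29 to 2.86, 1.82 to 2.53, 1.31 to 1.85 and -5.16 to -3.53. With 1 library left out they ranged from 2.56 to 2.86, 1.95 to 2.53, 1.58 to 1.85 and -4.73 to -4.20. The authors' deposited table called the same 4 members. Fabp1 passed the main filter only through wild-type, so it had to differ in order to be tested wherever that filter was kept. Its stability there is weaker evidence than that of the 3 raised members. It was also called lower with no filter on values. Fabp2 was called higher only without wild-type replicate 1, and its log2 difference ranged from 0.55 to 1.24 with 1 library left out. Of the members with no call, Hnf4g changed sign with quantile normalization (0.15) and ranged from -0.82 to 0.13 with 1 library left out. Cps1 changed sign with quantile normalization (0.34) and without wild-type replicates 2 and 3 (1.12), and ranged from -0.96 to 0.10 with 1 library left out. The cause was not tested. Quantile normalization put the median of all genes at 0.10 and upper quartile scaling at -0.15, against -0.02. Over all genes, 2488 were lower without wild-type replicates 2 and 3 and 2024 in the authors' deposited table, against 3743. Upper quartile scaling gave 3456 higher and 4504 lower, against 4053 and 3743. The 5 intestinal lists together gave 18 higher and 19 lower, and 13 to 18 higher and 14 to 20 lower under the alternatives. Of 476 counts for single lists under alternatives, 437 stayed within 1.5 times the main count. Same-numbered libraries had correlations of deviations from the group means of -0.00366, 0.0214 and -0.173, and in no case was a library's highest correlation with its own number, so the numbers do not pair the libraries. Adding the replicate block gave 3726 genes higher and 3626 lower, and 3 members were higher and 1 lower, as without it. Low read numbers limit Cdx1, Cdx2 and Cdh17.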
